A study of Mus musculus with 36 samples.

Results

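The 10 genes Twist1, Twist2, Prrx1, Prrx2, Snai1, Snai2, Runx1, Runx2, Sox9 and Foxc2 encode transcription factors of the mesenchyme. They were taken by symbol from the 54842 genes of a count table of total RNA from mouse embryonic fibroblasts (MEF), and each symbol matched 1 row with counts in all 36 libraries. Both MEF lines carried a doxycycline-inducible dCas9, a Cas9 that binds DNA without cutting it, and a guide RNA that directs it to the major satellite repeat (MSR), the tandem repeat of mouse pericentric heterochromatin. In MSR-dCas9-Control cells the dCas9 had no effector, and in MSR-dCas9-Activator cells it was fused to VPR, a transcriptional activator. The constructs were inserted by PiggyBac transposition, and each line was selected with hygromycin and kept as a mixed culture that was not cloned, so insertions can differ between cells. Libraries were made from uninduced cells, from cells induced with 10 ng/ml doxycycline (dox), and at 3, 6, 12 and 24 h of dox removal, with 3 biological replicates in each of the 12 groups. Induction lasted 24 h in the Control line and 6 h in the Activator line, so the lines differ in both effector and time on dox at every point after the start, and these cannot be told apart.

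Gene counts per library ran from 27376846 to 57371803, with a median of 42865961. Transcripts of the targeted repeat (the GSAT_MM family) took 0.00178% to 0.00396% of all counts in the 18 Control libraries, 0.0043% to 0.00804% in the 3 uninduced Activator libraries and 0.189% to 2.78% in the other 15 Activator libraries. The fibroblast identity was checked with 14 marker genes, of which 12 had a mean of at least 10 normalised read counts. Their summed level was 947700 to 1467000 normalised counts in Control libraries, 1409000 to 1454000 in uninduced Activator libraries and 468900 to 1264000 in the later Activator libraries. The 13 mRNAs encoded by the mitochondrial genome took 1.45% to 2.56% of gene counts in the 21 libraries without an induced Activator and 1.97% to 3.6% in the 15 others. In bulk RNA, fewer cells of a kind and less RNA per cell cannot be told apart, and read counts are relative to all gene RNA of a library.

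Twist1 and Twist2 are basic helix-loop-helix proteins that pair with the E proteins Tcf3, Tcf4 and Tcf12 and bind E-boxes, and the Id proteins hold E proteins back. Snai1 and Snai2 are zinc-finger repressors best known for silencing Cdh1 (E-cadherin) when epithelial cells turn mesenchymal. Prrx1 and Prrx2 are paired-type homeobox proteins of limb and craniofacial mesenchyme. Runx1, Runx2 and Runx3 bind DNA together with Cbfb, and Runx2 is required for bone while Runx1 is best known from blood formation. Sox9 is the HMG-box factor that starts cartilage, and Foxc2 is a forkhead factor of mesoderm and vessels. Embryonic fibroblasts express most of these genes.

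The loci have no common place in the genome. On GRCm38, Twist1 (ENSMUSG00000035799) is a compact gene of 2 exons at chr12:33957671-33959829 on the plus strand, and Twist2 (ENSMUSG00000007805) spans 46.6 kb of chromosome 1. Snai1 (ENSMUSG00000042821, chr2:167538195-167542814) and Snai2 (ENSMUSG00000022676, chr16:14705852-14709385) have 3 exons each on the plus strand. Runx1 (ENSMUSG00000022952, chr16:92601466-92826149) and Runx2 (ENSMUSG00000039153, chr17:44495987-44814797) are long minus-strand genes of 225 and 319 kb with alternative starts. Prrx1 (ENSMUSG00000026586, chr1:163245119-163313710) lies on the minus strand and Prrx2 (ENSMUSG00000039476, chr2:30834972-30881251) on the plus strand. Sox9 (ENSMUSG00000000567, chr11:112782224-112787760) has 3 exons, and Foxc2 (ENSMUSG00000046714, chr8:121116171-121118895) is a single exon of 2.73 kb. Antisense exons overlap 46.5% of the exonic bases of Twist2 (Gm29100), 5.87% of those of Runx2 (Runx2os1) and 0.881% of those of Runx1 (Gm26626). The library kit marked strand but the counting setting was not stated in the sources used here, so counts of these 3 genes may include antisense reads.

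Promoter windows were read from a RefSeq table of GRCm38.p6, which matched 7 of the 10 genes (Twist1, Twist2, Prrx1, Prrx2, Snai1, Runx1 and Runx2). Shown are the 150 bases before the start of 4 genes whose counts differed between the lines at several times, to set a TATA-bearing promoter beside GC-rich and CCAAT-bearing ones. Capitals mark matches on either strand to CANNTG (the E-box, of which CAGGTG is one form and is counted in both), TGTGGT (the RUNX motif), GGGCGG (the GC box), CCAAT and TATAAA.
Twist1, chr12:33957521-33957670, plus strand: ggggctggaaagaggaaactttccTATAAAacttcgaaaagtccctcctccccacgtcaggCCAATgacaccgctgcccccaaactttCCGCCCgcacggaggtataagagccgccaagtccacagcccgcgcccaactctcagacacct
Twist2, chr1:91801311-91801460, plus strand: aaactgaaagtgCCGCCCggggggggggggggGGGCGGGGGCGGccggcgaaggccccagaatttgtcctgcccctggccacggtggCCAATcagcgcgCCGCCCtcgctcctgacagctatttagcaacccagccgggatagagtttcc
Snai1, chr2:167538045-167538194, plus strand: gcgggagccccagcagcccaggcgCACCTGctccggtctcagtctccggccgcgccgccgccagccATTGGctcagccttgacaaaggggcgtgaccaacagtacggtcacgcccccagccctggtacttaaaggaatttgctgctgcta
Runx1, start of the shorter transcripts, chr16:92697330-92697479, minus strand: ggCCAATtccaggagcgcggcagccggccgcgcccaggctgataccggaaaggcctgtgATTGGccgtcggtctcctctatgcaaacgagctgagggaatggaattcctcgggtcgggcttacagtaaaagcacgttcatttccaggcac
The Twist1 window held 1 GC box, 1 CCAAT and 1 TATAAA, the Twist2 window 4 GC boxes and 1 CCAAT, the Snai1 window 1 E-box of the CAGGTG form and 1 CCAAT, and the Runx1 window shown 2 CCAAT. The window at the other Runx1 start, not shown, held 2 E-boxes, 1 of them of the CAGGTG form, and 2 CCAAT. Among 32851 promoter windows of the same length, 47.7% held an E-box, 10.6% CAGGTG, 8.4% a RUNX motif, 28.6% a GC box, 24.5% CCAAT and 7.57% TATAAA. These are letter matches and were not tested for binding, and the Twist2 window also lies over an exon of the antisense gene Gm29100.

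Levels between genes were compared as normalised count per kb of exon (the union of exons of all annotated transcripts, which understates genes with many alternative exons). In uninduced Control cells Prrx1 led with 1114 ± 207 per kb (SD, n = 3). It was followed by Snai1 (590 ± 137), Snai2 (557 ± 94.0), Runx2 (444 ± 29.4), Twist1 (230 ± 44.3), Twist2 (204 ± 41.7), Runx1 (200.4 ± 29.5), Prrx2 (172 ± 18.0), Sox9 (77.6 ± 20.4) and Foxc2 (17.6 ± 3.24), all per kb. The replicates of Snai1 and Snai2 overlapped, as did those of Snai2 and Runx2, and those of Twist1, Twist2, Runx1 and Prrx2 among each other. There was no overlap between Prrx1 and Snai1, Runx2 and Twist1, Prrx2 and Sox9, or Sox9 and Foxc2. In Activator cells 12 h after dox removal the order was led by Snai1 with 523 per kb, against 243 for Prrx1, and Sox9 with 148 per kb stood above Runx2 (84.5), Runx1 (79.5), Twist1 (76.0) and Twist2 (52.6). The range of Sox9 over the replicates overlapped those of the 2 Runx genes and Twist1 at that time. Within each of the 3 libraries, however, Sox9 stood above Runx2, Runx1, Twist1 and Twist2.

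**Figure D1:**
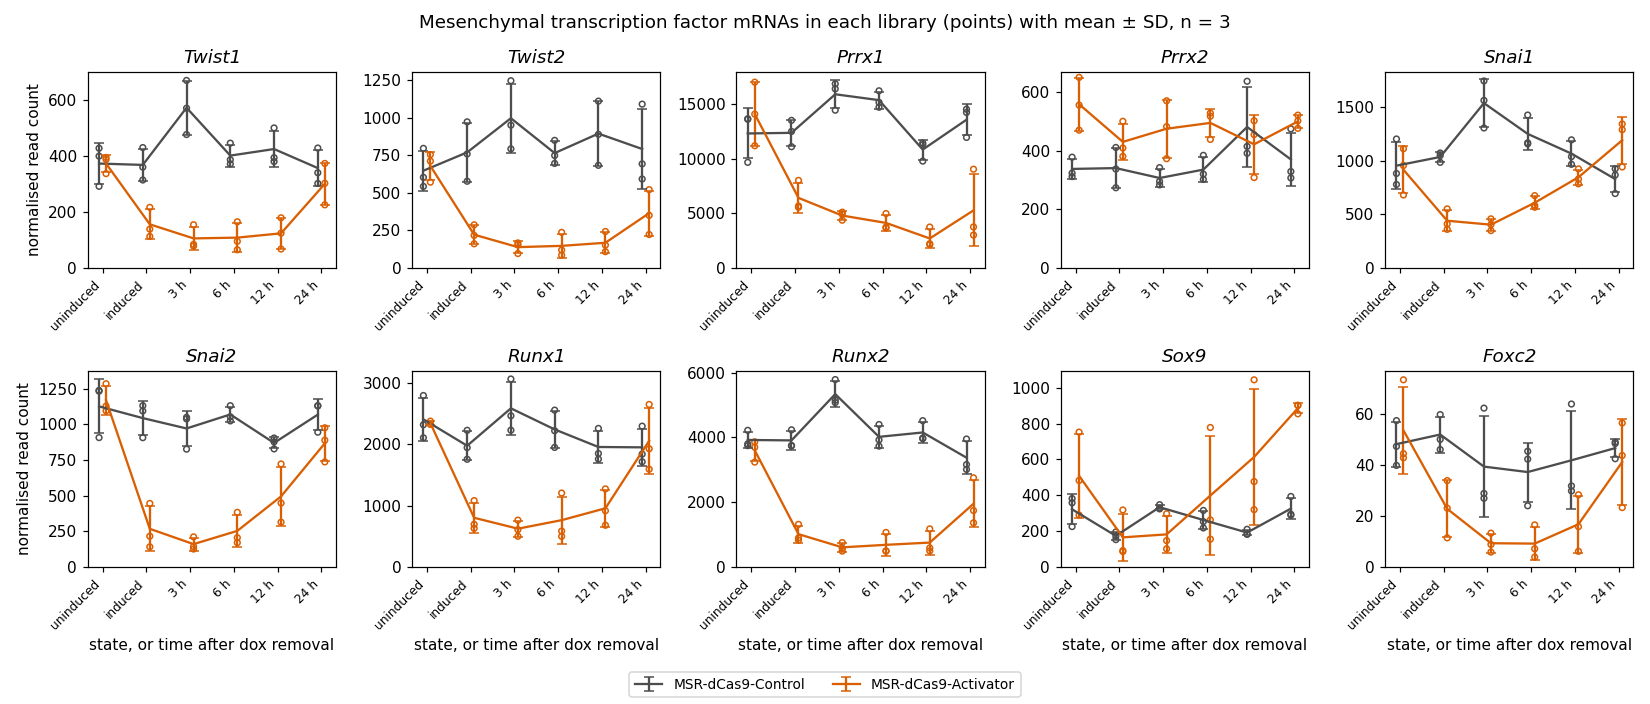
Normalised read counts (linear axis) of each of the 10 genes in all 36 libraries, by time point on the horizontal axis. Each library is 1 point, and a line with SD bars runs through the group means of the Control and the Activator line. For Runx2 the 3 Activator libraries 3 h after dox removal sit between 483 and 748 counts and the 3 Control libraries between 5081 and 5793, while for Prrx2 the Activator libraries are the higher ones at that time.

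The comparison of the lines at each time addressed how the induced activator at MSR was accompanied by changes in these genes. A gene was called when edgeR's quasi-likelihood test gave a Benjamini-Hochberg adjusted p under 0.05 over 28536 genes, the change was over 2-fold and the mean normalised count over all libraries was over 100. Of the 10 genes 9 had such a mean, and Foxc2 could not be called. Between uninduced Activator and Control cells none of the 9 was called by edgeR or by DESeq2, beside 0.0442% of genes called lower and 0.398% called higher, and 1 of the 10 had an unadjusted p under 0.05 (Prrx2). At the end of induction 6 of the 9 were lower in Activator cells (Twist1, Twist2, Snai1, Snai2, Runx1 and Runx2), beside 11.9% of all genes with such a mean. At 3 h after dox removal 8 of the 9 were lower, all but Prrx2, beside 19.7% of genes. At 6 h 7 were lower (background 21.5%), at 12 h 5 were lower and Sox9 was higher (22.8% lower and 8.94% higher), and at 24 h Twist2 and Prrx1 were lower and Sox9 higher (8.61% and 6.94%). Each of these comparisons rests on its own 6 libraries, with an estimate of the spread that all 36 share. With DESeq2 size factors in edgeR 7 were lower at 3 h, 6 at 6 h, and 4 lower beside 1 higher at 12 h. Sox9 at 3 h (log2 -0.89), Snai1 at 6 h (-0.86) and Runx1 at 12 h (-0.85) were then under 2-fold, though past the adjusted p. The DESeq2 Wald test did not call these genes at those times either.

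The adjusted p alone was a weak filter in these data. At induction it was passed by 8 of the 10 genes as lower and 1 as higher (25.5% and 31.7% of genes tested), and 3 h into dox removal by 9 and 1 (31.4% and 39.6%). At 6 h the counts were 8 and 1 (33.3% and 40.8%), by 12 h 7 and 1 (34.1% and 41.1%) and in the last libraries 3 and 3 (29.4% and 34.5%). The median log2 difference of the 10 genes, Activator minus Control, was 0.06 in uninduced and -1.31 in induced cells, and -2.07, -1.93, -1.19 and -0.25 over the 4 times of removal. Over all genes tested the medians were 0.03, 0.1, 0.16, 0.13, 0.12 and 0.01, and over those with a mean over 100 counts they were -0.02, -0.07, -0.11, -0.18, -0.29 and -0.3, so that the 24 h median of the 10 genes was close to that of all genes of such a mean. Activator libraries lay below all Control libraries of the same time for 8 genes at induction (26.1% of genes tested did so), 9 after 3 h of removal (31.6%), 8 after 6 h (30.9%), 8 after 12 h (33.7%) and 3 after 24 h (28.8%). They lay above all Control libraries for Prrx2 alone in uninduced cells (8.56% of genes), at 3 h (39.8%) and at 6 h (38.1%), for Sox9 alone at 12 h (39.9%), and for Prrx2, Snai1 and Sox9 at 24 h (32.7%).

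**Figure D2:**
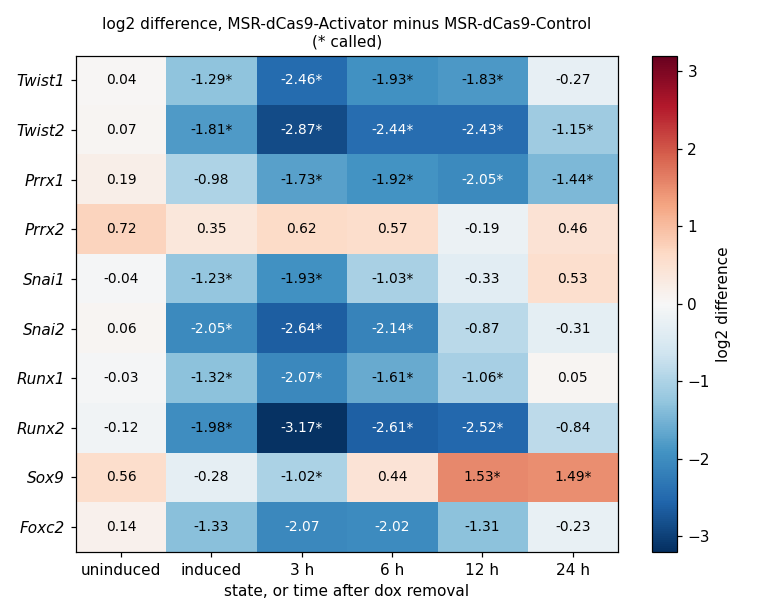
Heat map of the log2 difference in normalised counts, Activator minus Control (edgeR, n = 3 libraries per group), for each gene at the 6 time points. The value is printed in each cell, with an asterisk where the gene was called. The values fall to -3.17 for Runx2 and -2.87 for Twist2 at 3 h, Sox9 reaches 1.53 at 12 h, and Prrx2 stays between -0.19 and 0.72, with a sign at induction and at 6 h that turns when counts are scaled to mitochondrial mRNAs and at 12 h that turns with DESeq2 size factors; the sign of Sox9 at 6 h and of Runx1 at 24 h also turns with the mitochondrial scaling.

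Runx2, the factor required for bone, had the largest difference of the 10 genes. Uninduced Control libraries held 3802, 3747 and 4222 normalised counts of Runx2 and uninduced Activator libraries 3867, 3238 and 3699. At 3 h after dox removal the Control libraries held 5154, 5081 and 5793 counts and the Activator libraries 569, 748 and 483. The groups overlapped before induction and were far apart at 3 h, when Runx2 was 9.03-fold lower in Activator cells (log2 -3.17 ± 0.27 SE, edgeR adjusted p = 2.55e-10). It was 3.96-fold lower at induction and 6.12- and 5.75-fold lower at 6 and 12 h (edgeR adjusted p = 5.52e-07, 4.71e-09 and 6.16e-09). Against uninduced cells of its own line, Runx2 at 3 h was 6.12-fold lower in Activator cells (edgeR adjusted p = 6.24e-09). In Control cells it was 1.36-fold higher (edgeR adjusted p = 0.658). At 24 h the Activator libraries had 1358, 2752 and 1739 counts against 3162, 3011 and 3952. The groups did not overlap, and the difference of -0.84 ± 0.25 on the log2 scale passed the adjusted p (edgeR 0.00509) but not the 2-fold limit. Without replicate 1 it no longer passed (-0.67, edgeR adjusted p = 0.129), nor without replicate 3 (-0.65, edgeR adjusted p = 0.112).

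Runx1, its paralogue known from blood formation, was lower from induction to 12 h. It had 2233, 2468 and 3070 counts in Control libraries at 3 h and 498, 762 and 606 in Activator libraries, 4.21-fold lower without overlap (log2 -2.07 ± 0.22, edgeR adjusted p = 8.78e-09). At 24 h the Activator libraries held 1595, 2654 and 1929 counts and the Control libraries 1716, 1842 and 2299. These overlapped (log2 0.05 ± 0.21, edgeR adjusted p = 0.835, and -0.15 when scaled to mitochondrial mRNAs). The 12 h difference of -1.06 ± 0.22 (edgeR adjusted p = 9.42e-05) was close to the 2-fold limit. It lay between -0.84 and -0.94, still past the adjusted p, without replicate 1, without replicate 3, without Control replicate 3 alone and without Activator replicate 1 or 3 alone.

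Both Twist genes were lower in Activator cells from induction to 12 h. Twist1 had 478, 572 and 672 counts in the Control libraries at 3 h and 78.0, 155 and 83.9 in the Activator libraries. Twist2 had 793, 951 and 1247 counts in the same Control libraries and 95.2, 166 and 153 in the Activator libraries. For both genes every Activator library was below every Control library, by 5.5-fold for Twist1 (log2 -2.46 ± 0.25, edgeR adjusted p = 9.57e-10) and 7.33-fold for Twist2 (log2 -2.87 ± 0.23, edgeR adjusted p = 2.79e-11). At induction the differences were -1.29 ± 0.24 and -1.81 ± 0.22 on the log2 scale (edgeR adjusted p = 3.98e-05 and 1.28e-07), and at 12 h -1.83 ± 0.24 and -2.43 ± 0.23 (edgeR adjusted p = 1.4e-07 and 3.37e-10). At 24 h Twist1 libraries held 226, 374 and 303 counts in Activator and 302, 341 and 429 in Control cells, which overlapped (log2 -0.27 ± 0.23, edgeR adjusted p = 0.309). Twist2 held 222, 521 and 349.8 counts against 592, 693 and 1091, still without overlap and 2.22-fold lower (log2 -1.15 ± 0.22, edgeR adjusted p = 5.26e-05). The Twist2 fold at 24 h lay under 2 without replicate 3 (-0.88), without Control replicate 3 alone (-0.96) and without Activator replicate 1 (-0.92) or 3 (-0.94) alone.

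Among the Snail repressors, Snai2 was 6.23-fold lower at 3 h and Snai1 3.8-fold. Snai2 counts were 1038, 1049 and 826 in Control and 142, 209.8 and 124 in Activator libraries (log2 -2.64 ± 0.24, edgeR adjusted p = 3.66e-10). Snai1 counts were 1308, 1566 and 1748 in Control and 348, 458 and 404 in Activator libraries (log2 -1.93 ± 0.17, edgeR adjusted p = 1.14e-10). Neither gene's groups overlapped. At 12 h Snai1 stood at 968, 1040 and 1197 counts in Control and 831, 786 and 926 in Activator libraries, and its difference of -0.33 ± 0.17 did not pass (edgeR adjusted p = 0.0716), whereas it did when scaled to mitochondrial mRNAs (-0.95, edgeR adjusted p = 0.000229). Snai2 at 12 h stood at 904, 877 and 827 counts in Control and 313, 722 and 447 in Activator libraries, all lower, with a difference of -0.87 ± 0.22 that passed the adjusted p (edgeR 0.00113) but not the 2-fold limit, and did not pass without replicate 1 (-0.58, edgeR adjusted p = 0.064). At 24 h Snai1 was the one gene of the pair above its Control, with 1345, 943 and 1292 counts against 695, 869 and 926. That difference of 0.53 ± 0.17 on the log2 scale (edgeR adjusted p = 0.00696) was under 2-fold and did not pass without replicate 1 (0.31, edgeR adjusted p = 0.205) or without replicate 3 (0.55, edgeR adjusted p = 0.055). The Snai1 difference at 6 h (-1.03 ± 0.17, edgeR adjusted p = 4.03e-06) lay at the 2-fold limit. It was -1 without replicate 2, -0.91 without replicate 3, and between -0.9 and -0.95 without Control replicate 3 alone or Activator replicate 1 or 3 alone.

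Prrx1, the most abundant of the 10 per kb in uninduced cells, was lower in Activator cells at all times after dox removal. Its counts were 16880, 16420 and 14460 in Control and 4368, 5104 and 4912 in Activator libraries at 3 h, a 3.32-fold difference without overlap (log2 -1.73 ± 0.21, edgeR adjusted p = 5.59e-08). At 12 h they were 11460, 11290 and 9790 in Control and 2213, 3742 and 2127 in Activator libraries, 4.14-fold lower (log2 -2.05 ± 0.21, edgeR adjusted p = 2.85e-09). At 24 h Activator libraries held 3005, 9049 and 3751 counts, of which replicate 2 was the high one, against 14250, 14550 and 11960. The groups still did not overlap and the difference was 2.72-fold (log2 -1.44 ± 0.21, edgeR adjusted p = 1.45e-06). At induction the difference was 1.97-fold (log2 -0.98 ± 0.2, edgeR adjusted p = 0.000232), just short of the 2-fold limit and so not called. It was called with library sizes without TMM (-1.04) and when scaled to mitochondrial mRNAs (-1.34).

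Prrx2 did not share this course. Uninduced libraries already differed, with 312, 324 and 378 counts in Control and 556, 471 and 651 in Activator cells, without overlap (log2 0.72 ± 0.13, edgeR adjusted p = 0.00185). Of all genes tested 0.883% passed that limit in this direction. The uninduced difference did not pass without replicate 1 (0.66, edgeR adjusted p = 0.0617) or without replicate 3 (0.69, edgeR adjusted p = 0.285). At 3 h the counts were 295, 284 and 343 in Control and 483, 373 and 571 in Activator libraries, 1.54-fold higher in the Activator line (log2 0.62 ± 0.13, edgeR adjusted p = 0.000136), and at 6 h 1.48-fold higher (log2 0.57 ± 0.13, edgeR adjusted p = 0.000346). Scaled to mitochondrial mRNAs the log2 difference was 0.01 at 3 h and -0.14 at 6 h, so for Prrx2, which was under 2-fold and not called at any time, the adjusted p at 3 h and the sign at 6 h rest on the scaling. At 12 h, with 392, 415 and 638 counts in Control and 456, 309 and 503 in Activator libraries, the groups overlapped (log2 -0.19 ± 0.13, edgeR adjusted p = 0.196, and 0.03 with DESeq2 size factors). The Prrx2 change from uninduced cells did not pass as different between the lines at 3 h (-0.1, edgeR adjusted p = 0.714) or 6 h (-0.15, 0.524). Within the Activator line Prrx2 was below uninduced cells at induction (-0.37, edgeR adjusted p = 0.0138) and 12 h (-0.41, 0.00529).

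Sox9, the cartilage factor, was lower in Activator cells at 3 h and higher at 12 and 24 h. At 3 h it had 323, 328 and 347 counts in Control and 100.1, 296 and 146 in Activator libraries, which did not overlap although Activator replicate 2 came close. The difference was 2.03-fold lower (log2 -1.02 ± 0.39, edgeR adjusted p = 0.024), at the limit on both counts, and it did not pass without replicate 1 (-0.71, edgeR adjusted p = 0.131) or without replicate 3 (-0.9, edgeR adjusted p = 0.198). At 12 h Sox9 had 209, 182 and 182 counts in Control and 319, 1044 and 476 in Activator libraries, all higher, by 2.88-fold (log2 1.53 ± 0.39, edgeR adjusted p = 0.00125). Scaled to mitochondrial mRNAs the 12 h difference was 0.92 (edgeR adjusted p = 0.0657) and was not called. At 24 h the Control libraries held 293, 392.5 and 288 counts and the Activator libraries 854, 902 and 901. These were 2.8-fold apart with no overlap (log2 1.49 ± 0.38, edgeR adjusted p = 0.00162), and without replicate 3 the difference was 1.4 (edgeR adjusted p = 0.0592). Uninduced Activator libraries held 289, 752 and 482 counts against 381, 357 and 224, so replicates of this gene were wide apart from the start. At 6 h the difference was 0.44 ± 0.39 (edgeR adjusted p = 0.307) and had the opposite sign, -0.21, when scaled to mitochondrial mRNAs. The Sox9 change from uninduced cells did not pass as different between the lines at 12 h (log2 0.97, edgeR adjusted p = 0.14) or 24 h (0.93, edgeR adjusted p = 0.186). Within the Activator line Sox9 at 12 h differed from uninduced cells by 0.23 (edgeR adjusted p = 0.591).

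Foxc2 was the least abundant. It had 26.8, 28.7 and 62.2 counts in Control and 5.75, 13.2 and 8.72 in Activator libraries at 3 h, from 7, 15 and 8 raw counts in the latter. The groups did not overlap and the difference of -2.07 ± 0.42 on the log2 scale passed the adjusted p (edgeR 8.83e-05), as did those at induction (-1.33 ± 0.37, edgeR adjusted p = 0.00286), 6 h (-2.02 ± 0.43, edgeR adjusted p = 0.000153) and 12 h (-1.31 ± 0.39, edgeR adjusted p = 0.00387). At 24 h Activator libraries held 23.2, 56.4 and 43.6 counts and Control libraries 42.3, 48.9 and 48.3, which overlapped (log2 -0.23 ± 0.35, edgeR adjusted p = 0.573). Without replicate 1 the induction difference was -0.76 (edgeR adjusted p = 0.182). The 12 h difference did not pass without replicate 1 (-1.01, edgeR adjusted p = 0.0652), without replicate 3 (-0.94, 0.144), without Control replicate 3 alone (-0.91, 0.0655) or without Activator replicate 1 alone (-0.91, 0.0536).

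Each line was also compared with its own uninduced cells, which enter every such comparison of that line. In the Control line none of the 9 genes was called by edgeR or DESeq2 at any of the 5 later times, beside 0.00737%, 0.103%, 0.0221%, 0.0368% and 0.0295% of genes called higher and 0.11%, 0.155%, 0.147%, 0.508% and 0.199% called lower in time order. Unadjusted p was under 0.05 for 1, 3, 1, 2 and 0 of the 10 genes at induction, 3, 6, 12 and 24 h. Snai1 at 3 h was the exception on the adjusted p alone, 1.62-fold above uninduced Control cells (log2 0.69 ± 0.17, edgeR adjusted p = 0.0473, a limit that 0.291% of genes passed in that direction). The others of the 3 genes at 3 h were Twist1, 1.55-fold above uninduced Control cells, and Twist2, 1.53-fold above (edgeR adjusted p = 0.3 and 0.267). In the Activator line 8 genes fell at induction (12.5% of genes) and 8 at 3 h (20.2%), all but Prrx2 among the 9. The 3 h falls of Runx2 (6.12-fold), Twist2 (5.02), Runx1 (3.84), Twist1 (3.65), Prrx1 (2.91) and Snai1 (2.28) were smaller than their differences from Control cells. Those of Snai2 (7.5-fold) and Sox9 (2.86) were larger. At 6 h and at 12 h 6 had fallen (21.4% and 23% of genes), and at 24 h Prrx1 alone was still called, 2.8-fold below uninduced cells (8.54% of genes, log2 -1.48, edgeR adjusted p = 9.84e-07). Without replicate 2, the highest Activator library for several of these genes, 3 were called lower and 1 higher at 24 h.

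From 12 to 24 h the Activator line rose in 4 of the 9 genes, beside 6.03% of genes. Twist1 rose 2.47-fold (edgeR adjusted p = 0.000241), Twist2 2.15-fold (0.000687), Runx1 2.16-fold (0.000429) and Runx2 2.62-fold (0.00028), all edgeR adjusted p. Prrx1 (log2 0.93), Snai1 (0.5) and Snai2 (0.85) also passed the adjusted p in this step, and so did Foxc2 (1.28), but none of these 4 was called (17.5% of genes tested passed the adjusted p as higher). Sox9 (0.69, edgeR adjusted p = 0.146) and Prrx2 (0.27, edgeR adjusted p = 0.0927) did not pass. At 24 h after dox removal the Activator means, set against uninduced Activator cells, were 301 against 374 counts for Twist1, 1950 against 3601 for Runx2, 5268 against 14110 for Prrx1, 867 against 1169 for Snai2, 1194 against 918 for Snai1 and 886 against 508 for Sox9. Snai1 and Sox9 were thus the pair whose mean was above the start, by 0.38 (edgeR adjusted p = 0.0502) and 0.91 (edgeR adjusted p = 0.0371) on the log2 scale, neither of them called.

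The change from uninduced cells differed between the lines, as a difference of differences with an edgeR adjusted p under 0.05, in the lower direction for 8 of the 10 genes at induction (17.7% of genes tested), 9 after 3 h (25.7%), 8 after 6 h (27.7%), 8 after 12 h (28%) and 2 after 24 h (18.7%). Averaged over the 6 time points, in a fit with time and replicate as terms, 6 of the 9 genes were called lower in Activator cells, beside 11.6% of genes. These were Runx2 (log2 -1.89), Twist2 (-1.78), Prrx1 (-1.34), Snai2 (-1.31), Twist1 (-1.28) and Runx1 (-1.01, edgeR adjusted p = 2.96e-06). Runx1 lay at the 2-fold limit, with -0.93 without replicate 1 and -0.84 without replicate 3. Snai1 (-0.67), Prrx2 (0.42), Foxc2 (-1.06) and Sox9 (0.47, edgeR adjusted p = 0.0569) were not called on the average.

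Ratios between related genes were taken per kb within each library and are given as a description. Runx1 stood at 0.45 ± 0.0403 (SD, n = 3) of Runx2 in uninduced Control cells and at 0.482 ± 0.0441 in uninduced Activator cells. At 12 h the ratio was 0.345 ± 0.0209 in Control and 0.992 ± 0.18 in Activator libraries, without overlap. The Sox9 to Runx2 ratio, cartilage against bone factor, was 0.0987 ± 0.0135 in Control and 1.68 ± 0.262 in Activator libraries at 12 h, from 0.177 ± 0.0553 and 0.311 ± 0.171 before induction. Prrx1 exceeded Prrx2 by a ratio of 4.24 ± 1.33 in Control and 1.25 ± 0.778 in Activator libraries at 12 h, and Activator replicates 1 and 3 had more Prrx2 than Prrx1 per kb. The Snai1 to Snai2 ratio at 6 h was 1.47 ± 0.239 in Control and 3.32 ± 1.01 in Activator libraries, also apart. The Twist1 to Twist2 ratio was 0.908 ± 0.123 in Control and 1.69 ± 0.293 in Activator libraries at 24 h. Before induction the groups overlapped for all 5 ratios. At the 5 later times they did not overlap for Runx1 to Runx2, Sox9 to Runx2 and Prrx1 to Prrx2, while they overlapped for Snai1 to Snai2 at 12 and 24 h and for Twist1 to Twist2 at 3 h. A ratio shows that the genes of a pair differed in their change and not which of them changed.

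**Figure D3:**
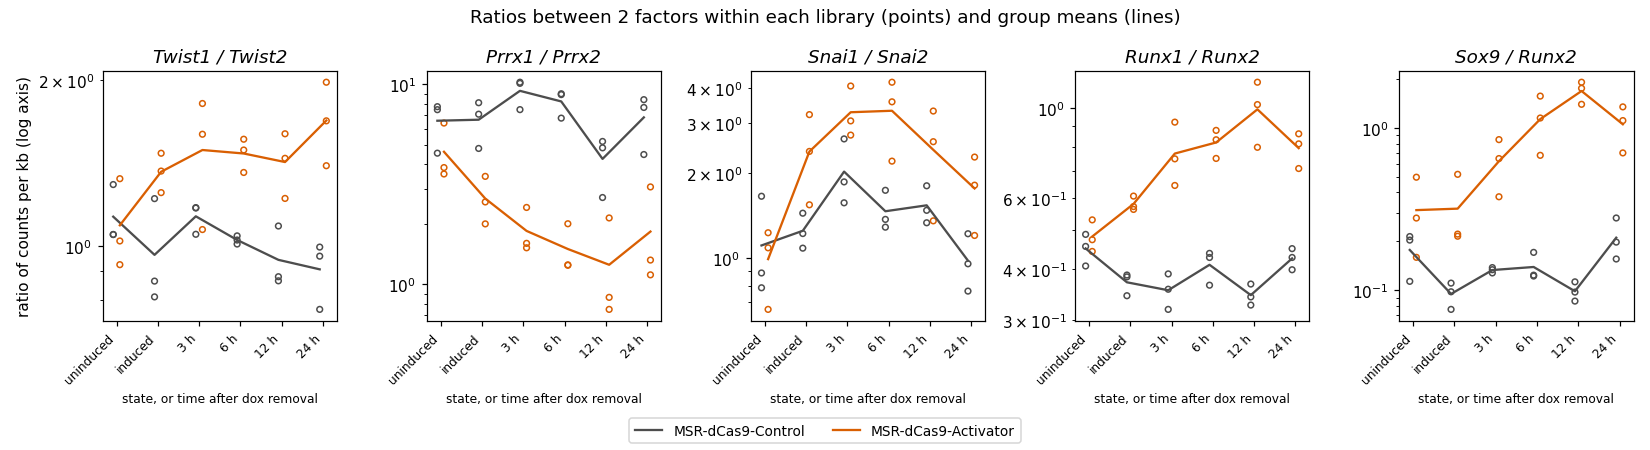
Ratios of normalised counts per kb between related genes (log axis) in every library by time point, with 1 point per library and a line through the group means. At 12 h the Sox9 to Runx2 ratio is between 1.39 and 1.91 in the 3 Activator libraries and between 0.0858 and 0.113 in the 3 Control libraries.

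Across the 12 group means, Twist1, Twist2 and Runx2 had the most similar courses, with Pearson's r of 0.98 (Twist1 and Twist2) and 0.99 (each with Runx2). Snai2 and Runx1 had r = 0.97 and Runx1 and Runx2 0.96. Prrx1 and Prrx2 had r = -0.5. These are descriptions over 12 points, 3 libraries each, that all hold the same contrast between lines. Among all genes with a mean over 100 counts, the 3 with the most similar course were Phldb1, N4bp3 and Traf4 for Twist2 (r from 0.994 to 0.995), Peak1, Tmppe and Tlnrd1 for Runx2 (0.997 to 0.998) and Mcl1, Trex1 and Klhl21 for Runx1 (0.994 each). They were Dusp5, Tnfaip3 and Gm28592 for Snai1 (0.977 to 0.986), 4933428G20Rik, Vcpip1 and Kdm6bos for Snai2 (0.994 to 0.996), Spag9, Abr and N4bp2 for Prrx1 (0.989 to 0.991), C9orf72, Tox4 and Synj1 for Foxc2 (0.982 to 0.995), Slc26a11, Kdm5b and 2810013P06Rik for Sox9 (0.92 to 0.951) and Npnt, Creg2 and Smad9 for Prrx2 (0.812 to 0.862).

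The genes around these factors were counted in fixed lists, of which only members with a mean over 100 counts could be called. Among 5 such paralogues of the 10 genes, 3 were called lower at 3 h and 1 at 12 h (beside 19.7% and 22.8% of all genes), and the 9 paralogues tested had a median log2 difference of -0.64 at 3 h and 0.1 at 12 h. Over all genes tested these medians were 0.16 and 0.12. Runx3 was 3.15-fold lower at 3 h (645 against 205 counts, edgeR adjusted p = 1.04e-08) and Foxc1 3.52-fold lower (594 against 176 counts, edgeR adjusted p = 2.74e-05). Snai3 averaged 4.68 counts, too few to be called, with 0.893 in Control and 12.3 in Activator cells at 12 h (edgeR adjusted p = 0.000207). Of 23 other transcription factors of mesenchyme and of the epithelial to mesenchymal transition, 14 were lower in induced cells and 16, 15, 13 and 5 over the 4 times of removal, beside 11.9%, 19.7%, 21.5%, 22.8% and 8.61% of all genes. The median of the 26 tested was -1.48 at 3 h and -0.96 at 12 h. Zeb1 and Zeb2, repressors that act on Cdh1 as the Snail proteins do, were 2.09- and 3.11-fold lower at 3 h (edgeR adjusted p = 4.67e-10 and 2.95e-12). At 12 h the extremes of this list were the homeobox gene Meis2, 6.16-fold lower, and Egr2, 7.54-fold higher (edgeR adjusted p = 1.66e-06 and 5.65e-06).

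Of 24 genes for binding partners 8 (3 h) and 9 (12 h) were called lower, beside 19.7% and 22.8% of all genes, and the 27 tested had a median of -0.26 and -0.51. Among these were 3 Id genes, whose products hold E proteins back from Twist. Id1 had 4071 counts in Control and 522 in Activator cells at 3 h, Id2 1613 and 239, and Id3 2554 and 951 (8.13-, 6.83- and 2.9-fold lower, edgeR adjusted p = 2.57e-08, 2.37e-07 and 0.000542). Id4, named after its values were seen and at a mean of 21.2 counts too low to be called, had a log2 difference of 3.63 in the other direction at 3 h (edgeR adjusted p = 1.19e-07). Of the E protein genes only Tcf4 was called at 12 h. It was 2.41-fold lower at that time (edgeR adjusted p = 2.38e-10), Tcf3 differed by -0.51 at 12 h on the log2 scale (edgeR adjusted p = 3.97e-05), and Tcf12 by 0.43 with the opposite sign, -0.18, when scaled to mitochondrial mRNAs. Cbfb, the partner of the Runx proteins, differed by -0.07 ± 0.09 at 3 h (edgeR adjusted p = 0.5), a sign that turned with DESeq2 size factors (0.06), and by -0.52 ± 0.09 at 12 h (edgeR adjusted p = 1.52e-05). Of 27 genes of signals that act upstream of the factors, 13 (3 h) and 14 (12 h) were lower, beside the same 19.7% and 22.8%, with a median over the 29 tested of -0.99 and -0.92. Largest among the called genes of this list at 12 h was the difference in Bmp4, 5.77-fold lower at 12 h (edgeR adjusted p = 1.82e-05).

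Genes that these factors are known to act on did not share one direction. Of 8 callable bone and cartilage targets, 3 were called higher at 3 h and 3 at 12 h (7.03% and 8.94% of all genes). The 19 tested, most of them under 100 counts, had a median log2 difference of 2.02 at 3 h and 3.18 at 12 h, and 12 of them passed the adjusted p as higher at 3 h (39.6% of genes tested). Genes near silent in Control cells could pass the filter on low counts through Activator libraries alone. This raises such medians, also that of the epithelial genes below. The limit of 100 on the mean over all libraries could be met the same way, which raises counts of genes called higher. Mmp13, a collagenase and a Runx2 target, had 15.4 counts in Control and 269 in Activator cells at 12 h, 17.7-fold higher (edgeR adjusted p = 1.68e-12). It was already called higher in uninduced Activator cells, with 119 against 34.8 counts (3.37-fold, edgeR adjusted p = 0.000374). Its mean of 135 counts over all libraries met the limit of 100 with no Control group mean above 34.8. Of 22 mesenchymal effectors 2 were higher and 5 lower at 12 h, shares near those of all genes (8.94% and 22.8%), with a median of -0.07 over the 24 tested. Among them were the matrix genes Tnc (3.65-fold higher, edgeR adjusted p = 0.00158) and Thbs1 (4.25-fold lower, edgeR adjusted p = 9.8e-06). The mean of Tnc was below its uninduced value in both lines at 12 h, at 1494 from 3625 counts in Activator and 400 from 1443 in Control cells. Vim, the intermediate filament of mesenchymal cells, differed by -0.17 ± 0.16 at 3 h and -0.61 ± 0.16 at 12 h on the log2 scale (edgeR adjusted p = 0.338 and 0.000978). Of 4 callable epithelial genes 2 were higher and 2 lower at 12 h (8.94% and 22.8% of all genes, median of 21 tested 1.39), with Grhl1 2.89-fold higher and Cdh3 4.14-fold lower (edgeR adjusted p = 9.22e-08 and 9.08e-09). Cdh1, the classical target of the Snail repressors, averaged 31.0 counts and so could not be called. It had 8.36 counts in Control and 47.7 in Activator cells at 3 h (edgeR adjusted p = 2.71e-05) and 5.31 and 101.4 at 12 h (edgeR adjusted p = 4.74e-09).

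**Figure D4:**
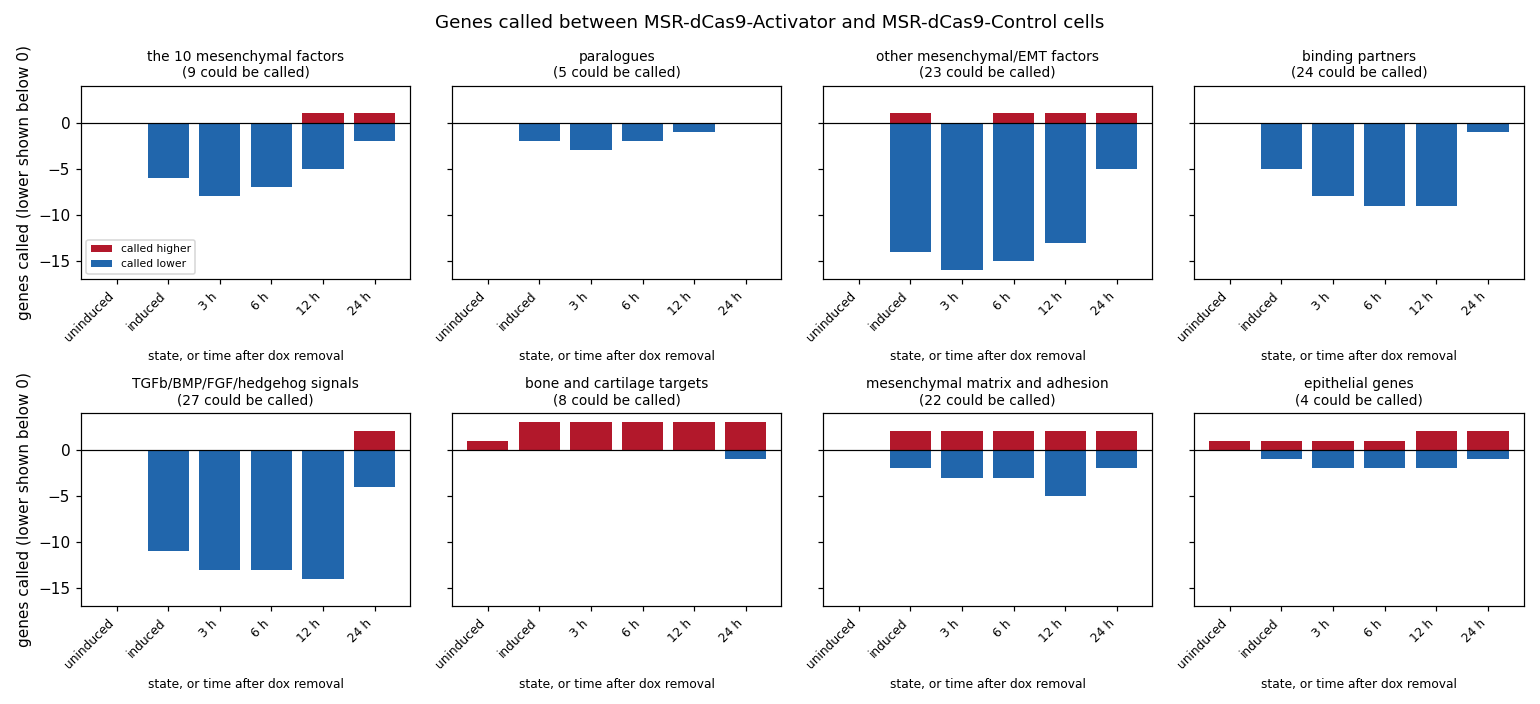
Number of genes called higher (above 0) or lower (below 0) in Activator than in Control cells at each time, for the 10 factors and for the gene lists around them. For the 10 factors the bars read 8 lower for 3 h, and for 12 h 5 lower beside 1 higher (Sox9).

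Markers of other cell types were read in the same libraries. Of 8 endothelial markers Pecam1 and Tek had a mean of at least 10 counts, and the list summed to 26.5 to 82.4 counts in Control, 69.6 to 128 in uninduced Activator and 592 to 1868 in later Activator libraries. Pecam1 had 11.4 counts in Control and 1186 in Activator cells at 12 h (edgeR adjusted p = 9.22e-12), while the defining genes Cdh5, Tie1 and Erg averaged 4.41, 2.38 and 0.423 counts over all libraries. Epithelial markers summed to 4976 to 8670, 7422 to 7829 and 2982 to 5690 counts in the same order of groups (mostly Cdh3, at a mean of 4578, while 12 of 21 tested passed the adjusted p as higher at 12 h and 41.1% of all genes did), blood cell markers to 485 to 656, 521 to 546 and 534 to 1248, muscle markers to 138 to 332, 197 to 263 and 264 to 404, and neural markers to 722 to 1360, 1409 to 1583 and 567 to 1004. The median differences of these lists at 12 h were 4.17 (6 endothelial genes tested), 2.94 (6 blood cell genes), 3.79 (4 muscle genes) and 2 (6 neural genes), most of them under 100 counts. Markers near silent in Control cells could pass the filter on low counts through later Activator libraries alone, which raises these medians. Pecam1 and Tek also met the limit of 100 on the mean (399.7 and 210.7 counts) through Activator libraries, as the whole list summed to at most 82.4 counts in Control libraries. Called at 12 h were 2 endothelial genes as higher and 1 neural gene as lower (Tubb3, 3.23-fold, edgeR adjusted p = 2.28e-06), beside 8.94% of all genes called higher and 22.8% called lower. Of 2 blood cell genes and 1 muscle gene that could be called, edgeR called 0, and 1 and 0 of them had an unadjusted p under 0.05. Among 10 callable fibroblast markers 1 was higher (Dcn, 3.56-fold, edgeR adjusted p = 0.000188) and 4 were lower at 12 h (the same background, median of 13 tested -0.03), with S100a4 3.39-fold lower (edgeR adjusted p = 6.61e-08). The mean of Dcn was below its uninduced value in both lines at 12 h, at 8996 from 22640 counts in Activator and 2550 from 14640 in Control cells. The part of these shifts in the results on the 10 factors was not tested.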

How the data were processed

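Total RNA depleted of ribosomal RNA was sequenced as stranded paired-end libraries. The authors used cutadapt for trimming, STAR for alignment to GRCm38 and TEtranscripts for counting, and the deposited values are raw counts for each gene or repeat family. The strand setting, the annotation release and the handling of multi-mapped reads were not stated in the sources used here. The table held 54842 genes, 1561 repeat families and 1 unnamed row (at most 0.00452% of a library's counts, left out). Gene positions came from the GRCm38 annotation, which matched 54495 gene identifiers.

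The 36 libraries were fitted together in edgeR 4.0.16 (R 4.3.3) with TMM scaling over genes, a term for each group and a term for the replicate number, as the study's own model held the replicate. Repeats stayed out of the fit. 28536 genes passed edgeR's filter on low counts, which keeps a gene that reaches its limit in as many libraries as the smallest group holds. Standard errors are the log2 difference divided by the root of the F statistic. Normalised counts are counts divided by the effective library size and multiplied by the geometric mean of those sizes. Replicate counts differed by more than sampling noise in all groups (lowest mean chi-square 16.1 per gene), so each library counted as 1 replicate. P-values test a difference against the spread left after the group and replicate terms, estimated over all 36 libraries. Each construct was held by 1 line, so spread between independently made lines does not enter them. Alternatives were other scalings (DESeq2 1.42.0 size factors, library size, 13 mitochondrial mRNAs), other filters, the DESeq2 Wald test, the fit without the replicate term, single time points and leaving out replicates. The 10 genes and the 12 lists (222 genes) were chosen with earlier results of these data known. Named from the lists were the largest called rise and fall at 12 h and 14 fixed genes. The genes closest in course to Twist1 are not reported here.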

Additional observations from a re-analysis of the deposited data

Results flagged for a closer look

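The change from uninduced cells was compared between the lines as a difference of differences (Activator minus Control, log2 scale, edgeR), and the genes below differed between the lines with an adjusted p between 4.64e-08 and 0.0251. At the end of induction 8 of the 10 factors passed as lower, beside 17.7% of all genes tested, with values of -1.33 for Twist1, -1.87 for Twist2, -1.17 for Prrx1, -1.19 for Snai1, -2.11 for Snai2, -1.29 for Runx1, -1.87 for Runx2 and -1.47 for Foxc2. At 3 h after dox removal 9 passed, beside 25.7%, with -2.5 for Twist1, -2.94 for Twist2, -1.92 for Prrx1, -1.88 for Snai1, -2.7 for Snai2, -2.04 for Runx1, -3.06 for Runx2, -1.58 for Sox9 and -2.21 for Foxc2. At 6 h 8 passed, beside 27.7%, with -1.97 for Twist1, -2.5 for Twist2, -2.11 for Prrx1, -0.99 for Snai1, -2.2 for Snai2, -1.58 for Runx1, -2.5 for Runx2 and -2.16 for Foxc2.

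At 12 h 8 passed, beside 28%, with -1.86 for Twist1, -2.5 for Twist2, -2.24 for Prrx1, -0.91 for Prrx2, -0.92 for Snai2, -1.04 for Runx1, -2.41 for Runx2 and -1.45 for Foxc2. The uninduced Activator libraries of Prrx2 were already above the uninduced Control libraries. At 24 h Twist2 (-1.22) and Prrx1 (-1.63) passed, beside 18.7% of genes. Without replicate 3 these 2 values were -1.03 and -1.35 with edgeR adjusted p of 0.121 and 0.0571, and that of Sox9 at 3 h was -1.21 with 0.295. The time points share the uninduced libraries, and Activator and Control cells also differed in their hours on dox.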

How the results depend on the processing

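The direction and the side of the adjusted p limit held in 939 of the values of single factors under the alternatives tried, while 38 no longer passed, 7 newly passed and 36 changed sign. Values that passed in neither fit count among the 939. The 2-fold limit did not enter, so a call could be lost among them, as for Snai1 at 6 h (-0.86 with DESeq2 size factors). Scaling to mitochondrial mRNAs moved the median log2 difference of genes with a mean over 100 counts from -0.07 to -0.44 at induction, from -0.11 to -0.73 at 3 h, from -0.18 to -0.91 at 6 h, from -0.29 to -0.92 at 12 h and from -0.3 to -0.5 at 24 h. Of all genes called at these times 32.6%, 26.2%, 25.8%, 28.2% and 44.6% were higher in Activator cells, against 14.5%, 9.33%, 7.63%, 9.67% and 24.2% with that scaling, and against 37.4%, 42.2% and 62.3% at 6, 12 and 24 h with DESeq2 size factors. The mitochondrial scaling also turned the sign of Prrx2 at induction (-0.02) and 6 h (-0.14), of Sox9 at 6 h (-0.21) and of Runx1 at 24 h (-0.15). Prrx2 at 12 h was 0.03 with DESeq2 size factors and 0.02 in the DESeq2 Wald test, and Runx1 in uninduced cells was 0 with library sizes without TMM. The causes were not tested.

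The number of factors called at 24 h (3) was 6 on the adjusted p alone and 1 to 4 when replicates were left out, 1 without replicate 3, and in uninduced cells (0) it was 1 on the adjusted p alone. Against uninduced Activator cells at 24 h (1) it was 2 with DESeq2 size factors, 2 with library sizes, 3 with the mitochondrial scaling, 2 in the DESeq2 Wald test and 1 to 4 with replicates left out. For the difference of differences it was 4 to 7 at induction (7, and 4 without replicate 1 or 3) and 0 to 3 at 24 h (2, and 0 without replicate 3) with replicates left out.

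Leaving out replicates or single libraries took the uninduced difference of Twist1 from -0.18 to 0.2, of Twist2 from -0.08 to 0.15, of Snai1 from -0.35 to 0.14, of Snai2 from -0.05 to 0.2, of Runx1 from -0.15 to 0.08 and of Runx2 from -0.27 to 0.05. It took Sox9 from -0.85 to 0.18 at induction and from -0.07 to 0.83 at 6 h, Prrx2 from -0.38 to 0.03 at 12 h, and Runx1 from -0.09 to 0.23 and Foxc2 from -0.48 to 0.05 at 24 h. Of these values only Sox9 at induction without replicate 2 (-0.85, edgeR adjusted p = 0.0475) passed.

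With the mitochondrial scaling the genes called in the lists became 3 paralogues at 12 h (from 1), 22 and 10 other mesenchymal factors at 12 and 24 h (from 14 and 6), 8, 13, 14 and 3 binding partners at induction, 3, 12 and 24 h (from 5, 8, 9 and 1), 22 and 22 signals at 3 and 6 h (from 13 and 13), 1 and 7 bone and cartilage targets at induction and 12 h (from 3 and 3), 11 and 7 effectors at 12 and 24 h (from 7 and 4), 2 epithelial genes at 12 h (from 4), 0 endothelial genes in uninduced cells (from 1), 1 muscle gene at 6 h (from 0) and 1 neural gene at 3 h and 1 at 24 h (from 0 and 0). With DESeq2 size factors they became 2 paralogues at 12 h, 3 signals at 24 h (from 6), 1 epithelial gene at induction (from 2) and 1 blood cell gene at 12 h (from 0).

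Samples of the same replicate number deviated together in part, with correlations of -0.0155 to 0.486 over 18 pairs (16 above 0.1), and 33 of 36 libraries correlated best with their own number. Without the replicate block the difference of differences at 24 h called 1 factor in place of 2. Prrx2 no longer passed without the block in uninduced cells (0.73, edgeR adjusted p = 0.104), at induction (0.34, 0.16) and at 24 h (0.43, 0.0669), nor did Sox9 at 3 h (-0.88, 0.128). With 3 libraries a group, Foxc2, at 4 to 17 raw counts in Activator libraries at 6 h, is the factor that depth limits most.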
